A study of Mus musculus with 24 samples.

Results

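The genes described here encode the nuclear receptors that lie outside the core clock, in the liver of male mice over 1 day. They were taken by name: 41 receptor genes out of 23152 measured genes, named members of the nuclear receptor superfamily, leaving out Nr1d1, Nr1d2, Rora, Nr0b2 and Nr4a1, and each was read as the mean of its probe sets. The tissue came from C56bl/6J males 13 weeks old with free access to chow, and total RNA was hybridised to a whole-transcript Affymetrix array. Samples were taken at 8 zeitgeber times, ZT0 to ZT21 in steps of 3 h, with 3 arrays at each and 24 arrays in all. Zeitgeber time is counted from lights on, and the labels used here give no length of day. No genetic change, drug or diet sets one group apart from another. The labels do not name the replicates as separate animals, so a p-value reflects the scatter among these arrays alone, part of which could be technical. Whole liver RNA mixes cell types, and fewer cells of a type and less RNA per cell cannot be told apart.

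Nuclear receptors are transcription factors that bind DNA through a zinc-finger domain and, in most members, are switched by a small lipid-soluble ligand. Many work as heterodimers with a retinoid X receptor and recruit corepressors without ligand and coactivators with it. In hepatocytes they couple hormones, fatty acids, bile acids and foreign compounds to the genes of metabolism, and REV-ERB and ROR alpha, left out here, form part of the clock.

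The clock genes were rhythmic over the labelled times. Arntl and Dbp had fitted acrophases, the hours of the peak, of 19.7 h and 7.58 h, and Nr1d1 and Per2 of 4.82 h and 12.05 h (adjusted p from 7.34e-07 to 1.84e-05, limma with Benjamini-Hochberg adjustment). All 8 hepatocyte markers lay above background, which is the 95th percentile of 1101 olfactory receptor genes, 6.17 on the log2 scale. Many of their probe sets reached the end of the scale at 19.93, 14 of 15 for Alb and 25 of 33 for Cps1, and no rhythm count is given for them. The rhythm test with limma called 0 of 10 Kupffer cell, 0 of 8 endothelial, 0 of 4 lymphoid and 0 of 5 adipocyte markers, of which 0, 2, 0 and 1 had an unadjusted p under 0.05. Over all genes 6.88% were called and 19.2% had an unadjusted p under 0.05. With lists this short, 0 calls do not show that a cell type lacks a rhythm. The biliary markers Krt19, Krt7, Epcam and Cftr, the lymphoid markers Cd3e, Ms4a1 and Cd79a and all 5 adipocyte markers lay below background. So did the stellate cell markers Des, Ngfr and Hand2. ZT0 replicate 1 stood apart: its mean correlation with the other arrays over all genes was 0.9678, and the mean of its 10 Kupffer cell markers was 11.75 against at most 9.60 on any other array. Without it 9 members were rhythmic, with Nr1i2 (0.0828) and Ppara (0.05) lost and Esr1 (0.0247) gained.

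A 24-h rhythm was found in 10 of the 41 receptor genes (24.4%), against 1592 of all 23152 genes (6.88%), at an adjusted p under 0.05 when limma's moderated F statistic tested a cosine and a sine of period 24 h together. All 10 lay above background, as did 25 members in all, so that 40.0% of the members above background passed, against 13.9% of the 10289 genes above it. The fitted peak-to-trough range had a median of 0.36 on the log2 scale over the members and 0.25 over all genes, and of 0.61 and 0.33 over those above background. Ppard had a range of 2.64 ± 0.36 (SE) or 6.23-fold, and the other 9 had ranges between 1.53-fold and 1.78-fold. Nr3c2, Ppara, Rxra, Hnf4a, Nr1h4 and Nr1i2 peaked between 6.29 h and 10.10 h. The other peaks were spread, at 13.47 h for Esrra, 19.75 h for Ppard, 22.33 h for Nr5a2 and 23.15 h for Thra. A rhythm call together with a peak between 6 h and 12 h, a window chosen after the values were seen, was found in 6 of 41 members and in 476 of all genes (2.06%).

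The count depended on the arrays and on how probe sets were combined. On the 16 arrays of replicates 2 and 3, 3 members passed (Ppard, Nr1h4 and Thra), 4 passed when a gene was read from its brightest probe set, and also from the median of its probe sets, and without ZT12 replicate 1, ZT9 replicate 3 or ZT21 replicate 2 the counts were 5, 6 and 6. Differences of any shape between the 8 time points were called in 1 member, Ppard, against 458 of all genes (1.98%), and 13 members had an unadjusted p under 0.05, against 14.4% of all genes. A 12-h component passed in 0 members and 0 of all genes (0.0%) in limma's test, where 4 members were under 0.05 before adjustment, against 6.09% of all genes. The arrays of the highest and the lowest time point did not overlap in 26 members (63.4%) and in 57.4% of all genes. Both time points were picked from these values, so a lack of overlap given below adds no support to a call. Nr3c1, which was not rhythmic (limma adjusted p = 0.957), was among the 26.

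**Figure D1:**
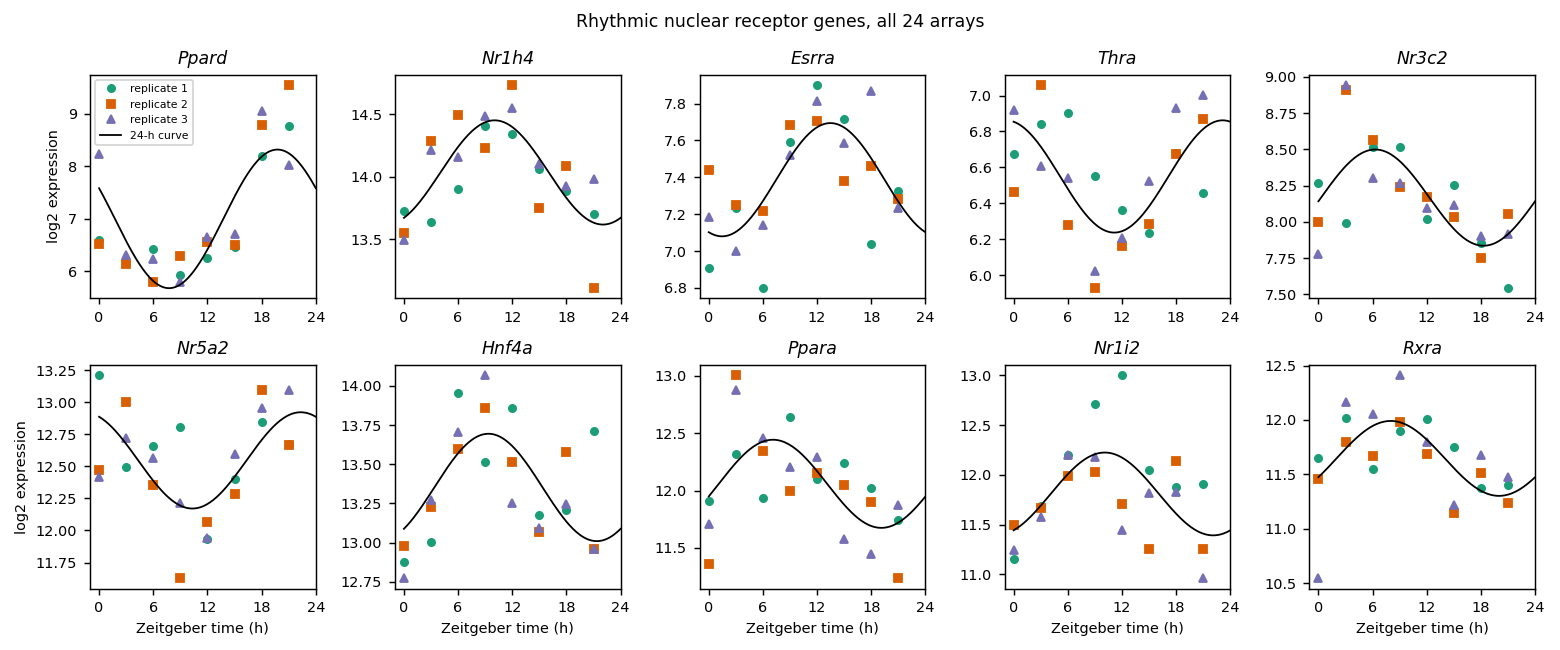
Log2 expression of the 10 rhythmic receptor genes against zeitgeber time in hours, 1 point per array with a symbol for each replicate number, and the fitted 24-h curve as a line. Ppard stays at or under 6.71 on 17 arrays and lies between 8.02 and 9.55 at ZT18 and ZT21, whereas the curves of the other 9 genes span at most 1.78-fold from trough to peak.

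The fatty acid receptors held the largest rhythm. Ppard (chromosome 17, 28232754 to 28301469 in mm10) encodes PPAR delta, a receptor for fatty acids that raises genes of fatty acid use in many tissues. Its log2 expression was 8.19, 8.79 and 9.04 at ZT18 and 8.76, 9.55 and 8.02 at ZT21, and 5.93, 6.29 and 5.80 at ZT9. All 6 arrays of ZT18 and ZT21 were higher than 17 of the remaining arrays, which ran from 5.79 to 6.71, and the exception was ZT0 replicate 3 at 8.23, against 6.60 and 6.52 on the other ZT0 arrays. The arrays thus fell into a high and a low set with none between 6.71 and 8.02. The means were 8.78 ± 0.77 (SD, n = 3) at ZT21 and 6.01 ± 0.26 at ZT9, a 6.80-fold difference. The ZT9 mean and the ZT6 mean of 6.15 lay below the background of 6.17, and the ZT3 mean of 6.20 lay just above it. Of the 9 probe sets of Ppard, 5 had means above background. Whether background limits the low values, and with them the fold difference, was not tested. The peak was fitted at 19.75 ± 0.51 h (SE; limma adjusted p = 9.88e-05 for the rhythm and 0.000575 for the time effect). Each of its 9 probe sets peaked within 3 h of that hour, with ranges from 1.05 to 5.64. A gene's value is the mean of its probe sets, so such agreement is not independent support, here or for the genes below. It passed under the 12 other settings tried, with adjusted p-values up to 0.0469, and with any single array left out, up to 0.00032. Fitted to each replicate number separately, the peak fell at 19.88, 19.32 and 20.11 h.

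In each of 2 other marker lists, 1 gene was rhythmic with a peak at a nearby hour. Of 9 stellate cell markers 1 passed, Pdgfrb, with a peak at 20.39 h, and of 6 biliary markers 1, Sox9, at 20.16 h. Over all genes 6.88% passed, and 13.9% of those above background, so 1 call in a list this short says little about a cell type. The other markers of these lists did not pass. Their fitted peaks ran from 11.52 h (Hand2) to 23.23 h (Col1a1) in the stellate list. In the biliary list they ran from 18.48 h (Krt19) past 24 h to 3.22 h (Cftr). The mean of the stellate markers lay between 7.50 at ZT6 and 8.36 at ZT0, and that of the biliary markers between 6.14 at ZT9 and 6.75 at ZT0. The part of these cell types in the rhythm of Ppard was not tested.

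Ppara (chromosome 15, 85734910 to 85806851), which encodes PPAR alpha, the receptor behind the fasting program of fatty acid oxidation, had its peak at another time of day. Its log2 expression was 12.32, 13.01 and 12.88 at ZT3 and 11.74, 11.23 and 11.87 at ZT21, so that the 3 arrays at ZT3 were all above the 3 at ZT21. The fitted range was 0.77 ± 0.20 or 1.70-fold with a peak at 7.11 ± 0.98 h (limma adjusted p = 0.0423). The call was kept when ZT0 replicate 2, ZT3 replicate 2 or 3, ZT6 replicate 1, ZT9 replicate 2, ZT15 replicate 1 or 2 or ZT18 replicate 1 or 2 was dropped, and lost when any of the other 15 arrays was (0.05 to 0.0874). Among the other settings that lost it were the brightest probe set (0.272), an unmoderated F (0.0645) and the 16 arrays of replicates 2 and 3 (0.0973). Pparg, whose product drives fat storage, had a larger fitted range, 1.16 ± 0.33, but a wider spread and did not pass (0.078). Its 3 arrays read 9.36, 10.11 and 10.19 at ZT12 and 7.77, 8.18 and 8.51 at ZT21, and at ZT9 they ran from 7.66 to 9.69. Without ZT9 replicate 2 or ZT0 replicate 3 it passed (0.0099 and 0.0359), as it did among the genes above background alone (0.0436).

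The daily curves of Ppara and Ppard differed from each other. The difference of their log2 values on the same array, Ppara minus Ppard, had a 24-h range of 3.40 ± 0.49 with its highest point at 7.61 h, and a permutation test of the arrays with 100000 draws gave p = 1e-05, the smallest it can give (adjusted over 11 receptor pairs, 0.00011). The highest adjusted p without any 1 array was 0.00033. The RefSeq table used here holds 1 promoter window for each of these genes on GRCm38.p6, and the 250 bases before the start are shown because this pair had the largest difference between its daily curves. Capitals mark the GC box GGGCGG, read on both strands, which was found 3 times before the start of Ppard (chr17:28232504-28232753, plus strand) and 2 times before that used for Ppara (chr15:85735526-85735775, plus strand). The start used for Ppara, and the bases shown before it, lie inside the gene, whose span begins at 85734910.
Ppard: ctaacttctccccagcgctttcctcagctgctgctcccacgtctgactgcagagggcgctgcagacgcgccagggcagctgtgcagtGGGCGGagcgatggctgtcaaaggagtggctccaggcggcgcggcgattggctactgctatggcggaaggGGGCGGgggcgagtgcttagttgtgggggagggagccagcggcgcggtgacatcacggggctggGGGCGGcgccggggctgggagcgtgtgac
Ppara: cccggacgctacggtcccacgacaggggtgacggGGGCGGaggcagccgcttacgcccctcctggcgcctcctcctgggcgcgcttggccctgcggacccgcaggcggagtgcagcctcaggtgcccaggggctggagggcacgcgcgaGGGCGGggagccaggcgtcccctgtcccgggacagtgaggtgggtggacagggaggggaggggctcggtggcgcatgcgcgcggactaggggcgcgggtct
Neither window held the E-box CACGTG or the D-box TTANGTAA, motifs bound by clock activators and by Dbp and its relatives. Over all 32851 RefSeq windows of 300 bases, 35.7% held the GC box, 7.15% the E-box and 2.32% the D-box on either strand, and of the 58 windows of 37 receptor genes 43.1%, 8.62% and 1.72% did. Of the 12 windows of the 9 rhythmic members in the table, 0 held an E-box or a D-box. A match is a run of letters only, and binding was not measured here.

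**Figure D2:**
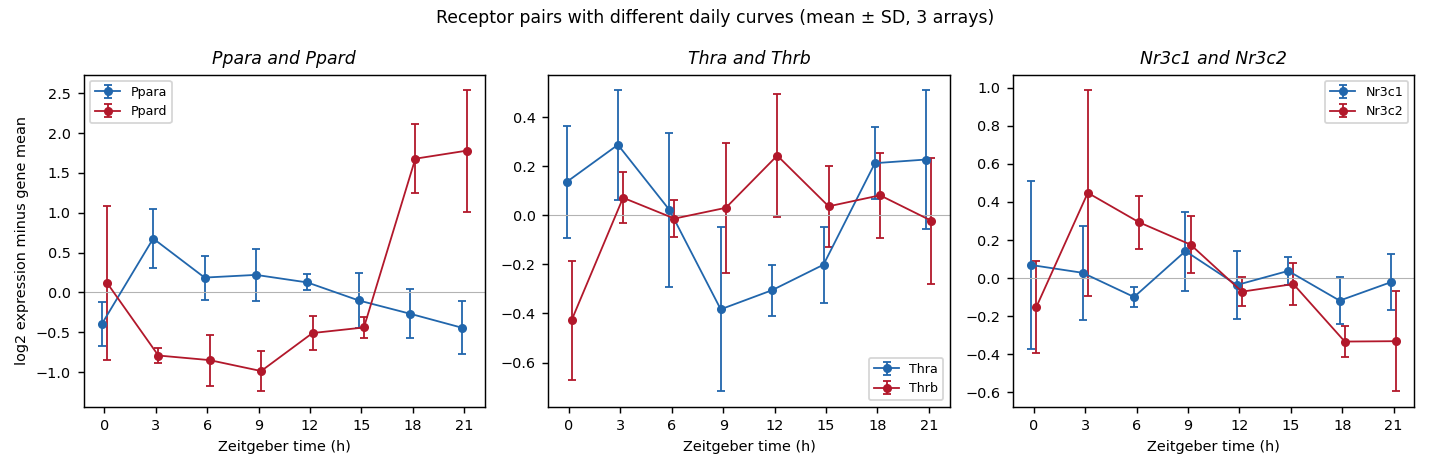
Log2 expression minus the mean of each gene over 24 arrays, against zeitgeber time in hours, for 3 pairs of related receptors, as the mean ± SD of 3 arrays. Ppard is highest at ZT21 and Ppara at ZT3, Thra is lowest at ZT9, and Nr3c2 is highest at ZT3 while the means of Nr3c1 stay between 12.06 and 12.32.

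Among the receptors for bile acids and sterols, Nr1h4 was rhythmic. It encodes FXR, the bile acid receptor that restrains bile acid synthesis and raises bile salt export (chromosome 10, 89454234 to 89533645). Its log2 expression was 14.35, 14.74 and 14.55 at ZT12 and 13.72, 13.55 and 13.49 at ZT0. The ZT12 arrays all lay above the ZT0 arrays, and the means differed by 1.94-fold. The curve had a range of 0.83 ± 0.15 or 1.78-fold, with a peak at 10.04 ± 0.68 h (limma adjusted p = 0.0022). All 13 of its probe sets peaked within 3 h of that hour, with ranges from 0.47 to 1.38. The brightest of them, at a mean of 18.11 on a scale that ends at 19.93, had the range of 0.47 and did not pass when it alone stood for the gene (0.39). The call held without any 1 of the 24 arrays (0.00126 to 0.00573). The oxysterol receptor genes Nr1h3 and Nr1h2, which encode LXR alpha and LXR beta, did not pass, with ranges of 0.25 ± 0.13 and 0.34 ± 0.19 (adjusted p = 0.48 and 0.54). The 24-h range of their difference was 0.53 ± 0.20 (permutation p = 0.0512, 0.0939 adjusted over the pairs).

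Nr5a2 encodes LRH-1, a receptor that drives bile acid synthesis genes (chromosome 1, 136842562 to 136960448). It was highest at ZT18, at 12.84, 13.09 and 12.96, and lowest at ZT12, at 11.94, 12.07 and 11.95. These arrays did not overlap, and the ZT18 mean was 1.97-fold the ZT12 mean. The fitted range was 0.75 ± 0.18 with a peak at 22.33 ± 0.89 h (limma adjusted p = 0.0227), and all 11 probe sets peaked within 3 h of it. It did not pass without ZT9 replicate 2 (0.055) or ZT12 replicate 1 (0.0516), with the brightest (0.172) or median (0.248) probe set, or on the 16 arrays (0.0711). The 250 bases before a RefSeq start of Nr1h4 (chr10:89506659-89506908, minus strand) and of Nr5a2 (chr1:136960449-136960698, minus strand) are shown because each holds the core of a receptor binding site. Capitals mark AGGTCA or its reverse complement TGACCT, a motif in 16.3% of all windows and 19.0% of those of the receptor genes.
Nr1h4: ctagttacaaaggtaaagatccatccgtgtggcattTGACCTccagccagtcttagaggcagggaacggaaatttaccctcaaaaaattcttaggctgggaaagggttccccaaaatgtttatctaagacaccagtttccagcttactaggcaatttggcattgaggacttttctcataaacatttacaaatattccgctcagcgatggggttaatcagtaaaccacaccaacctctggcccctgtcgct
Nr5a2: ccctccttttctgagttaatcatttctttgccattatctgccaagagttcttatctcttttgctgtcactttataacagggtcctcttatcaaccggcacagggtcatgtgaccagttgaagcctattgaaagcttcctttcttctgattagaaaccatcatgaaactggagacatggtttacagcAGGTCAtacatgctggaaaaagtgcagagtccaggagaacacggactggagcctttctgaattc
The match began at position -214 relative to this start of Nr1h4 and at position -64 relative to that of Nr5a2. This start of Nr1h4 lies inside the gene, whose span runs to 89533645. RefSeq gives a second window for Nr5a2, with no match.

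Hnf4a and the retinoid X receptor gene Rxra peaked between 8.0 h and 9.36 h. Hnf4a encodes a receptor that maintains hepatocyte identity (chromosome 2, 163506811 to 163572907). It read 13.51, 13.86 and 14.07 at ZT9 and 12.88, 12.98 and 12.77 at ZT0, with no overlap and a 1.92-fold difference of the means. The curve had a range of 0.68 ± 0.17 with a peak at 9.36 ± 0.92 h (limma adjusted p = 0.0281), and 17 of 18 probe sets peaked within 3 h of it. It did not pass without ZT9 replicates 2 (0.0609) or 3 (0.0745), ZT12 replicate 1 (0.0549) or ZT21 replicates 2 (0.0515) or 3 (0.0503). Without the ZT0 arrays the adjusted p was 0.131, with the brightest and the median probe set 0.23 and 0.0869, and on the 16 arrays 0.0553. Its relative Hnf4g lay below background with a range of 0.21 ± 0.17, and the test of the pair did not pass (range of the difference 0.85 ± 0.28, permutation p = 0.0249, adjusted 0.0685).

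Rxra encodes RXR alpha, the partner of the PPARs, LXRs, FXR, PXR and CAR on DNA (chromosome 2, 27676445 to 27763319). Its log2 expression was 11.89, 11.98 and 12.41 at ZT9 and 11.65, 11.45 and 10.54 at ZT0, and replicate 3 was the lowest of all 24 arrays. The fitted range was 0.69 ± 0.18 or 1.61-fold with a peak at 8.0 ± 1.0 h (limma adjusted p = 0.0479). It was the call nearest to the threshold. It held without ZT0 replicates 1 or 3, ZT6 replicates 1 or 2, ZT15 replicate 2 or ZT18 replicate 3 and was lost without any other array (0.0542 to 0.113). Among the other settings that lost it were the median probe set (0.447), each array centred on its median (0.0548), an unmoderated F (0.0674) and the 16 arrays (0.164). Rxrb and Rxrg did not pass, with ranges of 0.37 ± 0.14 and 0.30 ± 0.17, and the test of Rxra against Rxrb did not pass (range of the difference 0.57 ± 0.24, permutation p = 0.0862, adjusted 0.118).

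The xenobiotic receptors PXR and CAR sense drugs and bile acids and raise the enzymes that clear them. Nr1i2, the PXR gene (chromosome 16, 38248349 to 38294849), read 12.71, 12.03 and 12.18 at ZT9 and 11.15, 11.50 and 11.25 at ZT0, with no overlap and a 2.01-fold difference of the means. At ZT12 the arrays ran from 11.45 to 13.00. The curve had a range of 0.83 ± 0.22 with a peak at 10.10 ± 1.0 h (limma adjusted p = 0.0462), and 11 of 12 probe sets peaked within 3 h of it. It held only without ZT12 replicates 2 or 3, ZT15 replicate 2, ZT18 replicates 1 or 2 or ZT21 replicate 1 and was lost without any other array (0.0517 to 0.105), and also without the ZT0 arrays (0.196), with an unmoderated F (0.0724) and on the 16 arrays (0.303). Nr1i3, the CAR gene, had a larger fitted range of 1.17 ± 0.50 with a wide spread and did not pass (0.335). It was low at ZT0, at 11.66 ± 0.83, and at ZT21, at 12.27 ± 1.32, and reached 13.79 ± 0.51 at ZT18 and 13.70 ± 0.89 at ZT6 (SD, n = 3 each). All 10 of its probe sets had their fitted peak within 3 h of 10.45 h. The test of Nr1i2 against Nr1i3 did not pass (range of the difference 0.35 ± 0.44, permutation p = 0.731).

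**Figure D3:**
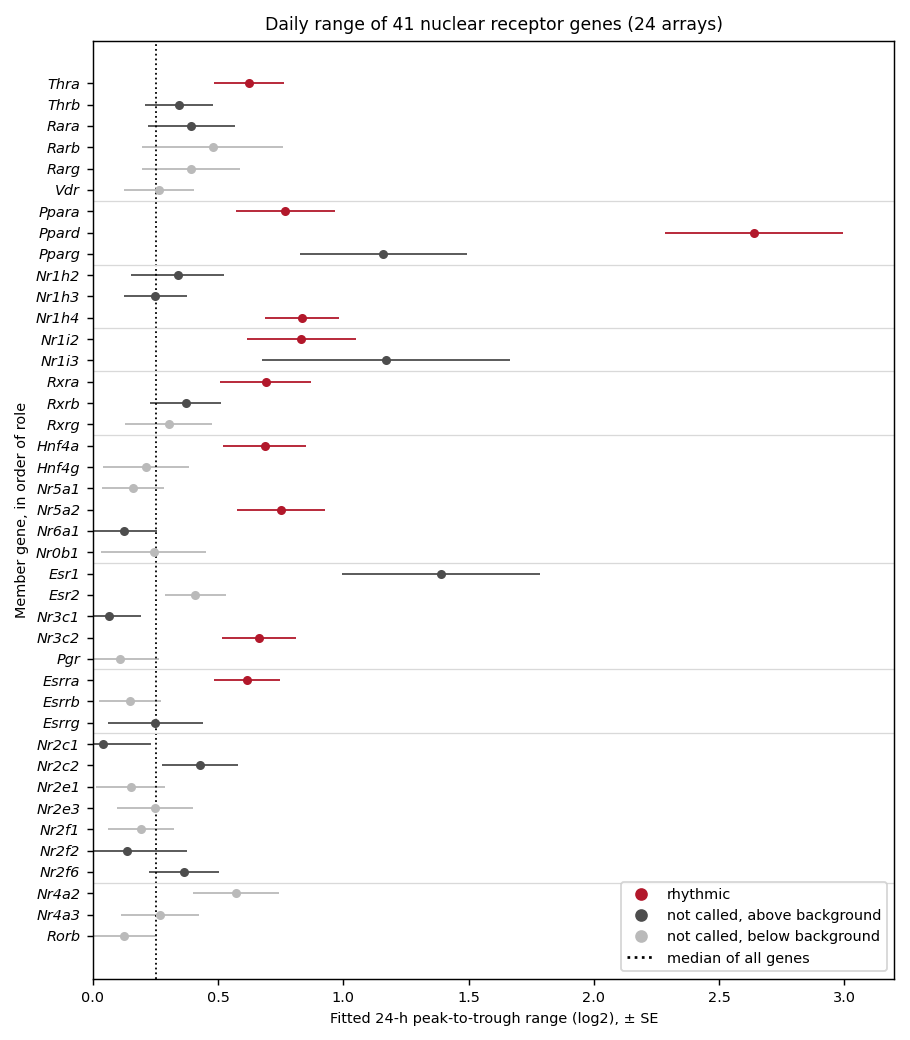
Fitted 24-h peak-to-trough range on the log2 scale, with its SE, of the 41 receptor genes in order of role, with colour for the call and for background and a dotted line at the median of all genes, 0.25. Ppard lies apart at 2.64, and Esr1, Nr1i3 and Pparg have ranges above 1 with SEs of 0.33 to 0.50.

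Of the thyroid hormone, retinoic acid and vitamin D receptors, Thra was rhythmic. It encodes thyroid hormone receptor alpha (chromosome 11, 98740776 to 98769006), and Thrb encodes the beta form, which carries most of the thyroid response of the liver. Thra read 6.84, 7.06 and 6.61 at ZT3, and 6.55, 5.93 and 6.02 at ZT9. The groups did not overlap, with a lowest ZT3 array of 6.61 and a highest ZT9 array of 6.55. The fitted range was 0.62 ± 0.14 with a peak at 23.15 ± 0.85 h (limma adjusted p = 0.0162), and it passed without any 1 of the 24 arrays (0.00761 to 0.0365). Thrb had a range of 0.34 ± 0.14 and did not pass (0.282). It was lowest at ZT0, at 10.83, 11.30 and 10.96, and highest at ZT12, at 11.42, 11.91 and 11.77. The difference Thra minus Thrb had a 24-h range of 0.96 ± 0.15 with its highest point at 23.51 h (permutation p = 2e-05, adjusted 0.00011). With the median probe set neither the rhythm of Thra (0.71) nor the difference (0.277) passed, and with the brightest both did, with ranges of 1.44 (0.02) and 1.76 (0.00264).

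The probe sets of Thra did not move together. Of 21, 12 peaked between 20 h and 2 h and 3 between 3.01 h and 4.33 h, 1 of these with a range of 2.69, and 6 at other hours. The 3' end of Thra overlaps that of the clock gene Nr1d1, which lies on the opposite strand, over 1075 bases (98767932 to 98769006), and Nr1d1 peaked at 4.82 h. The files give no position for the probe sets, and whether signal from Nr1d1 enters those of Thra was not tested. On the arrays of replicate 1 alone Thra peaked at 3.10 h, and on those of replicates 2 and 3 at 22.75 h and 21.66 h. A later peak on replicate 1 was not particular to Thra. Arntl peaked at 20.91, 19.39 and 19.06 h on replicates 1, 2 and 3, and Nr1d1 at 5.87, 4.27 and 4.31 h. Replicate 1 also gave the latest peak for Nr1h4, Nr3c2, Nr5a2, Hnf4a, Ppara and Nr1i2, but not for Ppard or Esrra, and it tied with replicate 3 for Rxra. This shift was not tested. The retinoic acid receptor genes did not pass, with ranges of 0.39 ± 0.18 for Rara, 0.48 ± 0.28 for Rarb and 0.39 ± 0.20 for Rarg. Rarb, Rarg and Vdr, the vitamin D receptor gene, lay below background, at 6.13, 5.72 and 4.57. The test of Rara against Rarg did not pass (range of the difference 0.56 ± 0.20, permutation p = 0.0377, adjusted 0.0829).

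**Figure D4:**
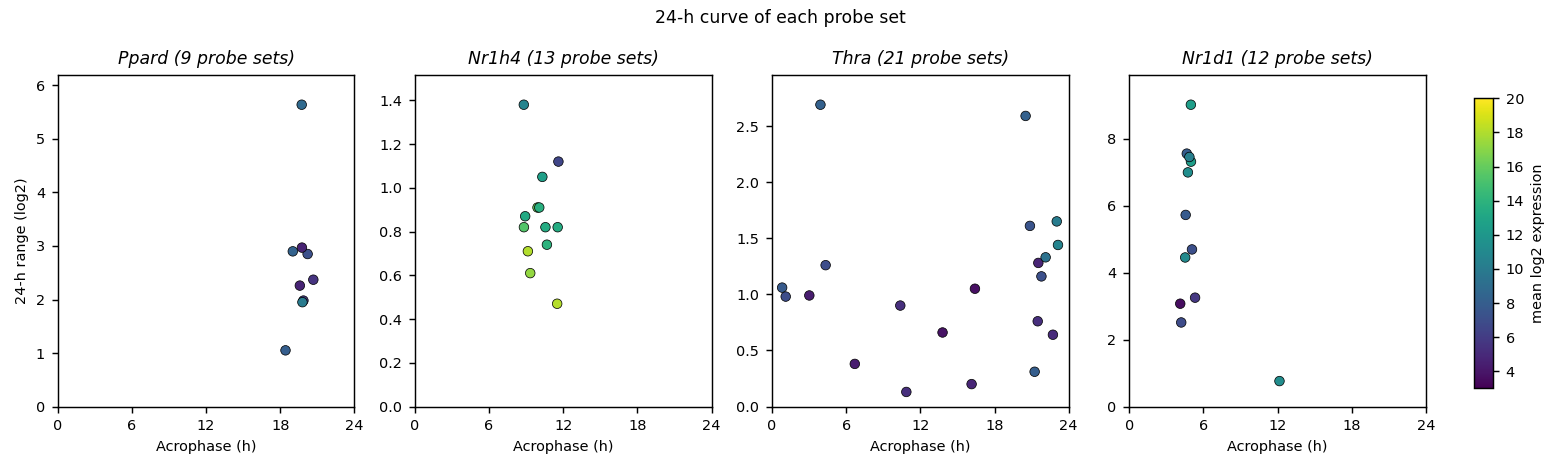
24-h range on the log2 scale against fitted acrophase in hours for each probe set of Ppard, Nr1h4, Thra and the clock gene Nr1d1, with colour for the mean log2 expression. The 9 probe sets of Ppard and the 13 of Nr1h4 each lie within 3 h of the gene's peak. Those of Thra spread over the day, and 3 lie between 3.01 h and 4.33 h. The 11 of Thra above background lie from 20.51 h past 24 h to 4.33 h.

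The curves of the corticosteroid receptor genes differed from each other. Nr3c2 encodes the mineralocorticoid receptor (chromosome 8, 76898083 to 77245012). It read 7.99, 8.91 and 8.95 at ZT3 and 7.85, 7.75 and 7.90 at ZT18, where the lowest ZT3 array of 7.99 was close to the highest ZT18 array. The curve had a range of 0.66 ± 0.15 with a peak at 6.29 ± 0.85 h (limma adjusted p = 0.0163). It passed without any 1 of the 24 arrays (0.00881 to 0.034), but not with the brightest (0.827) or median (0.225) probe set or on the 16 arrays (0.0908). Nr3c1, which encodes the glucocorticoid receptor, had time-point means between 12.06 and 12.32 and a range of 0.06 ± 0.13 (adjusted p = 0.957). The difference Nr3c1 minus Nr3c2 had a 24-h range of 0.60 ± 0.12 (permutation p = 0.00027, adjusted 0.00099), which was lost when the brightest probe set stood for each gene (0.988). Esr1, the estrogen receptor alpha gene, had a fitted range of 1.39 ± 0.40 and did not pass (0.0739). It read 8.60, 8.60 and 8.29 at ZT3 and 9.30, 10.41 and 10.30 at ZT12, and its 3 arrays spread from 9.16 to 10.99 at ZT0 and from 8.16 to 10.52 at ZT9. It passed without ZT0 replicate 1 (0.0247), ZT9 replicate 2 (0.0287), ZT21 replicate 3 (0.0382) or all ZT0 arrays (0.0161), and among the genes above background alone (0.0413). Esr2 and Pgr, the genes of estrogen receptor beta and the progesterone receptor, lay below background, at 4.51 and 4.26, and Esr2 passed without ZT0 replicate 3 alone (0.0403).

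Esrra encodes ERR alpha, an orphan receptor that drives genes of mitochondrial respiration (chromosome 19, 6910977 to 6922048). It read 7.90, 7.71 and 7.82 at ZT12 and 6.80, 7.22 and 7.14 at ZT6. The arrays did not overlap and the means differed by 1.69-fold. The fitted range was 0.61 ± 0.13 with a peak at 13.47 ± 0.82 h (limma adjusted p = 0.012). It passed without any 1 of the 24 arrays (0.0045 to 0.0309), but not with the brightest (0.943) or median (0.081) probe set or on the 16 arrays (0.107). Its brightest probe set, at 10.77, had a range of 0.25, and 6 of 8 probe sets peaked within 3 h of the gene. Esrrg had a range of 0.25 ± 0.19 (0.733), Esrrb lay below background at 3.96, and the test of Esrra against Esrrg did not pass (range of the difference 0.59 ± 0.24, permutation p = 0.0689, adjusted 0.108).

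The orphan NR2 receptors gave no call. Of 7 members 0 passed in limma's test, and 2 were under 0.05 before adjustment, against 19.2% of all genes. Nr2c2, the TR4 gene, had a range of 0.43 ± 0.15 (adjusted p = 0.206) and Nr2f6 of 0.36 ± 0.14 (0.257), and Nr2c1 and Nr2f2, the genes of TR2 and COUP-TF II, had ranges of 0.04 ± 0.20 and 0.14 ± 0.24. The differences within the pairs Nr2c1 and Nr2c2 (0.41 ± 0.21, permutation p = 0.186) and Nr2f2 and Nr2f6 (0.37 ± 0.22, permutation p = 0.264) did not pass. Nr6a1, the gene of the germ cell nuclear factor, had a range of 0.12 ± 0.13 (0.85), and 1 of its 21 probe sets had a mean of 16.12 while the gene's mean was 7.16.

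The 16 members below background had mean log2 values between 3.96 and 6.13 and ranges between 0.11 and 0.57, and 0 passed limma's test (adjusted p from 0.0927 to 0.928), with 2 under 0.05 before adjustment, against 19.2% of all genes. They were Rarb, Rarg, Vdr, Rxrg, Hnf4g, Esr2, Pgr and Esrrb, the brain and retina receptor genes Nr2e1 and Nr2e3, Nr2f1, Rorb, the adrenal and gonadal genes Nr5a1 and Nr0b1, and the immediate-early genes Nr4a2 and Nr4a3. Nr4a2 had a fitted range of 0.57 ± 0.17 (0.0949). Some held brighter probe sets: 3 of 12 of Hnf4g lay above background, the brightest at 11.80.

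Genes that act with the receptors were read from 3 further lists, whose members above background had median ranges of 0.27 for coregulators, 0.43 for ligand supply and removal and 0.63 for receptor targets, against 0.33 over all genes above background. Of 19 measured coregulator genes 1 passed: Ppargc1b, which encodes a coactivator of PPAR and ERR receptors, with a range of 1.18 ± 0.25 and a peak at 5.81 h (limma adjusted p = 0.00992). Of 19 genes of ligand supply and removal 2 passed, Rdh11, a retinol dehydrogenase gene, with 2.03 ± 0.43 and a peak at 19.98 h (0.0111), and Akr1d1, a steroid and bile acid reductase gene, with 1.07 ± 0.19 and a peak at 18.16 h (0.00165). Of 34 known receptor target genes 5 passed (14.7%), 1 of them Esrra. Over all genes 6.88% passed, and above background 13.9%, against 16.7% of the 30 target genes, 16.7% of the 12 ligand genes and 5.26% of the 19 coregulator genes above it. Among these 5 the largest ranges were those of the glucocorticoid targets Fkbp5, 2.49 ± 0.29 with a peak at 11.39 h (1.84e-05), and Tsc22d3, 1.75 ± 0.33 with a peak at 14.23 h (0.00355), and of the thyroid hormone target Thrsp, 2.25 ± 0.37 with a peak at 12.76 h (0.000938). Of the 3 probe sets of Thrsp, 2 reached the highest value of the scale. The fifth, the FXR target Abcb11, named after its values were seen, had a range of 1.49 ± 0.17 with a peak at 22.53 h (1.45e-05), beside the peak of Nr1h4 at 10.04 h. Of 5 PPAR alpha targets and 5 LXR targets 0 passed limma's test, 1 and 0 being under 0.05 before adjustment. Cyp4a10, a PPAR alpha target, had a range of 2.17 ± 1.23 (0.558) and the LXR target Srebf1 of 0.83 ± 0.35 (0.338), both chosen after their values were seen.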

How the data were processed

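The members and the gene lists were chosen with earlier results of these data known. Liver RNA was measured on 24 arrays, 3 at each of 8 time points. The authors deposited log2 values, whose normalization is not given in the sources used here. Their medians per array ran from 6.44 to 6.51 and the scale ended at 19.93. Per the submitters' processing notes, limma, Affymetrix Power Tools 2.10.0 and mm10 were used, with no role stated. Of 269479 probe sets, 233753 carried 1 gene symbol and were kept, 5106 carried several and 30620 none. RefSeq (GRCm38.p6) updated the symbols of 2189 genes and gave positions and promoters. Probe sets of a gene were averaged. The number of arrays limits the precision.

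Tests used limma 3.58.1 in R 4.3.3 on all 23152 genes and 24 arrays with no filter, and Benjamini-Hochberg adjustment over all genes at 0.05. They covered a 24-h rhythm (cosine and sine terms, with the peak-to-trough range and the peak hour), a time effect over 8 means, and a 12-h component added to the 24-h terms. Errors are SDs over 3 arrays for time points and SEs for fitted values. Related receptors were compared by permuting the arrays (100000 draws) on the F statistic of the 24-h terms, fitted to the difference of their log2 values and adjusted over 11 pairs. The tests were tested on simulated data. Every member is named, and of the other lists the 3 rhythmic genes with the largest range. Alternatives were the normalization, the probe sets used, a filter on dim genes, the variance prior, a replicate block and leaving out arrays.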

Additional observations from a re-analysis of the deposited data

How the results depend on the processing

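The 24-h rhythm count over all genes was 1592, and 760 with the brightest probe set, 907 with the median probe set and 765 on the 16 arrays of replicates 2 and 3, where the member count of 10 became 4, 4 and 3. The count of a time effect over all genes was 458, and 704 without genes below background, 122 and 222 with the brightest and the median probe set and 204 with an unmoderated F. Its member count of 1 became 4 without genes below background, 2 with the brightest probe set and 3 on the 16 arrays, where 1 gene passed the 12-h test. Fewer genes or arrays enter the fit without dim genes and on the 16 arrays, and the cause of the changed counts was not tested for any setting. Leaving out each array in turn gave 1316 to 1730 rhythmic genes and 5 to 10 rhythmic members, 295 to 579 genes and 1 to 3 members with a time effect, 0 of either with a 12-h component, and 3 to 5 receptor pairs, the 5 without ZT21 replicate 1. With the replicate number as a block, 1435 genes and 8 members were rhythmic, Ppara (0.0587) and Rxra (0.062) not passing, 322 genes had a time effect, and 3 pairs passed. The numbers were not taken to pair the samples: deviations of same-numbered arrays correlated between -0.187 and 0.298, with 5 of 84 pairs of arrays over 0.1, and 4 of 24 arrays correlated best with their own number. Deviations that come from a later peak change sign over the day, so this check does not settle whether 1 replicate number ran later. Arntl peaked at 20.91 h on replicate 1, and at 19.39 h and 19.06 h on replicates 2 and 3. The peak hour of the 10 rhythmic members moved by at most 2.18 h over 36 settings each (Nr3c2, brightest probe set). The variance prior, the moderation and the filter on dim genes were not run for the pairs.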
